A study of Mus musculus with 21 samples.

Results

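The 10 chemokine genes described here were measured in mouse mammary cells in both of the study's array tables. They are Ccl20, Cxcl5, Cxcl1, Cxcl2, Cxcl10, Ccl2, Ccl7, Cx3cl1, Cxcl16 and Cxcl12. The list was chosen from measured values: Ccl20, Cxcl5 and Cxcl1 were already known to be lower after 2 h of TGF-b1 in these data. All 10 of 10 were found by their symbol among 18193 genes of the NMuMG table and among 12393 genes of the NM18 table. A gene was read from its strongest probe set, by the mean over a table's arrays.

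The study asked how the forkhead factor FoxQ1 and TGF-b1, a cytokine under which epithelial cells can turn mesenchymal, act on epithelial differentiation. NMuMG cells, an epithelial line from normal mouse mammary gland, were given 200 µM 4-thiouridine (4sU), a uridine analogue that is built into RNA made after it is added. All 12 NMuMG arrays carry 4sU for 2 h, either alone (control) or together with 5 ng/ml TGF-b1, and either total RNA or RNA enriched for 4sU (newly made RNA) was hybridised, in 4 groups of 3 arrays. NM18 cells, named no further in the labels, received 25 nM of control or FoxQ1 siRNA for 48 h, in 3 groups of 3 arrays: control siRNA alone, and either siRNA together with TGF-b1. TGF-b1 was given at 5 ng/ml for the last 40 h, starting 8 h after transfection, and FoxQ1 siRNA was not used without it. Array 1 of control siRNA alone carries a free-text remark describing TGF-b1 treatment, whereas its title and treatment label name none. The title and label were followed, and each NM18 value set against control siRNA alone rests on them. The labels describe the replicates as biological and do not say that they came from separate cultures, so p-values measure the spread between these samples.

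Chemokines are small secreted or membrane-bound proteins that draw leukocytes along a gradient through receptors on those cells. The CXC chemokines with a glutamate-leucine-arginine motif (Cxcl1, Cxcl2, Cxcl5) attract neutrophils through CXCR2, Ccl20 attracts CCR6-bearing lymphocytes and dendritic cells, Ccl2 and Ccl7 attract monocytes through CCR2, and Cxcl10 is an interferon-induced ligand of CXCR3. Epithelial cells make several of them under the control of the transcription factor NF-kB, and many of their mRNAs are short-lived.

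Promoter sequence was matched for 6 of the 10 genes in RefSeq (assembly GRCm38.p6), as the 250 bases before the gene's start. The 4 windows with a match to the NF-kB motif are shown because they hold genes that were lower after TGF-b1 (Ccl20, Cxcl1 and Cxcl2) beside one that was higher (Cxcl10). They are Ccl20 at chr1:83116516-83116765 on the plus strand, Cxcl1 at chr5:90890995-90891244 on the plus strand, Cxcl2 at chr5:90903649-90903898 on the plus strand and Cxcl10 at chr5:92348890-92349139 on the minus strand. Each is written 5′ to 3′ on the gene's own strand, and capitals mark the NF-kB matches.
Ccl20: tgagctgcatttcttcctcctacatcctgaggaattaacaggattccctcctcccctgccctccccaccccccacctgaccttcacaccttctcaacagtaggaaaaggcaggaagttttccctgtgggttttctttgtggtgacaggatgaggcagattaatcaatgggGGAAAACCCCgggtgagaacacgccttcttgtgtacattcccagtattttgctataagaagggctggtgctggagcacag
Cxcl1: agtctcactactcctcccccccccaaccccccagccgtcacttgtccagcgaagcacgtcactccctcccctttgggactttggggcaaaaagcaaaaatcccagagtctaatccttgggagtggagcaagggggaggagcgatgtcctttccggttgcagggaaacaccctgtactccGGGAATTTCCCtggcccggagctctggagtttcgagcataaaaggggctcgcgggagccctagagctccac
Cxcl2: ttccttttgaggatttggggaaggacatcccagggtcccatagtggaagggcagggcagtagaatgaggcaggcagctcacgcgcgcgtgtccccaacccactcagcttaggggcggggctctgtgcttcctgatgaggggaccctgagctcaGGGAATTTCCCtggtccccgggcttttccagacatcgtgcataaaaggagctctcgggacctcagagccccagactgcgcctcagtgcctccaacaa
Cxcl10: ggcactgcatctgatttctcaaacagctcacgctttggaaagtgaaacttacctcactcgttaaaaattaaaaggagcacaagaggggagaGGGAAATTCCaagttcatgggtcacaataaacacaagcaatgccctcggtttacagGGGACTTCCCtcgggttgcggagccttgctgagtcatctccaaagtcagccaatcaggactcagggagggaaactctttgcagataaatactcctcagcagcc
The match lay 80 to 71 bases before the start in Ccl20, on the strand opposite the gene. In Cxcl1 it lay 71 to 61 bases before the start and in Cxcl2 97 to 87 bases before it, as the same 11 letters, which match on both strands as 2 overlapping sites. Cxcl10 had 2 separate matches, 159 to 150 and 103 to 94 bases before its start. An NF-kB match was present in 4 of 6 of these windows and in 3.9% of all 32851 windows of the same length, both strands searched. Cx3cl1 and Cxcl12 had none in their windows. Cxcl10 also held the AP-1 letters TGANTCA, found in 6.75% of all windows, and the interferon-response letters GAAANNGAA, found in 7.13%. The SMAD letters CAGACA were found in the Cxcl2 window, 69 to 64 bases before the start, and in 17.1% of all windows. The TATA box letters TATAAA were found in Cx3cl1 among the 6 windows and in 12.4% of all, and the C/EBP letters TTGCNNAA in 0 of 6 windows and 9.56% of all. These matches describe letters in a window and were not tested as binding sites. In the same assembly Cxcl1 and Cxcl2 are neighbours, as are Ccl2 and Ccl7, and Cxcl5 lies next to Ppbp, which codes for another CXCR2 ligand.

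All values are expression values per probe set on a scale read as log2, because no label states it, so a difference of 1 is read as a 2-fold difference. The tables were normalized separately, and levels were compared only within a table. In NMuMG 9 of the 10 genes lay above the median gene of the table, 6.67, with Cxcl2 below it. In NM18 7 of 10 lay above the median gene, 7.79, with Cxcl2, Cx3cl1 and Cxcl12 below it. Of 12 epithelial markers 8 to 11 lay above the table median in every group of both cell lines, against 1 to 2 of 10 macrophage and leukocyte, 0 to 2 of 8 fibroblast and 0 of 6 endothelial markers. Array values of different genes are not on a common scale, so these counts do not rank genes. In bulk RNA, fewer cells that make a transcript and less of it per cell cannot be told apart.

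Foxq1, the targeted gene, was lower in each array of FoxQ1 siRNA (7.57, 8.09 and 7.97) than in each array of control siRNA with TGF-b1 (9.08, 9.04 and 9.33), a fall by 1.27 ± 0.16 (log2 change ± SE, limma adjusted p = 0.000291). TGF-b1 raised Foxq1 by 0.89 ± 0.16 at 40 h in NM18 and by 0.95 ± 0.25 in newly made and 1.10 ± 0.25 in total RNA at 2 h in NMuMG. Smad7, an inhibitor that TGF-b signalling induces, rose by 0.94 ± 0.19, 0.99 ± 0.11 and 1.25 ± 0.11, and Skil, another feedback inhibitor, by 1.00 ± 0.18, 0.76 ± 0.12 and 1.13 ± 0.12 in the same comparisons. Id1, a gene that TGF-b1 is known to repress in epithelial cells, fell by 1.77 ± 0.15 in NM18 and did not pass in NMuMG, at -0.44 ± 0.28 in newly made (adjusted p = 0.533) and -0.77 ± 0.28 in total RNA (adjusted p = 0.282). Array 1 of control siRNA alone, which carries the remark on TGF-b1, gave Id1 at 12.46, Smad7 at 8.70 and Skil at 10.52. The other arrays of its group gave 12.41 and 12.95, 9.14 and 9.34, and 11.34 and 10.77. Those of control siRNA with TGF-b1 gave 10.71 to 10.94, 9.73 to 10.27 and 11.75 to 12.02. For each of these genes array 1 thus lay apart from the TGF-b1 arrays, on the side of its own group.

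After 2 h of TGF-b1 the 10 genes did not move alike in NMuMG. Ccl20, Cxcl5 and Cxcl1 were much lower, Cxcl2 and Ccl2 were slightly lower, Cxcl10 was slightly higher, and Ccl7, Cx3cl1 and Cxcl12 had groups that overlapped in both kinds of RNA. Because the list was chosen from this comparison, its values are a description with no test.

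Ccl20 gave 11.14, 10.84 and 10.91 in newly made RNA of control cells (10.96 ± 0.16, mean ± SD, n = 3) and 7.72, 7.40 and 7.48 with TGF-b1 (7.53 ± 0.16). This was a change of -3.43 ± 0.15 (log2 change ± SE), or 10.8-fold lower. In total RNA it gave 10.48, 10.35 and 10.73 in control cells and 8.92, 8.57 and 8.45 with TGF-b1, a change of -1.88 ± 0.15, or 3.67-fold lower. The groups lay far apart in both kinds of RNA, and Ccl20 had the lowest change of all 18193 genes in newly made RNA and the 4th lowest in total RNA.

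Cxcl5 gave 11.70, 11.81 and 11.84 in newly made RNA of control cells and 8.74, 9.08 and 9.13 with TGF-b1, a change of -2.80 ± 0.16, or 6.96-fold lower. In total RNA it gave 11.38, 11.23 and 11.07 against 8.50, 8.54 and 7.92, a change of -2.90 ± 0.16, or 7.49-fold lower. Cxcl5 thus differed as much in total as in newly made RNA, and its change was the 2nd lowest of all genes in newly made RNA and the lowest in total RNA.

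Cxcl1 gave 12.98, 13.04 and 12.97 in newly made RNA of control cells and 11.68, 11.75 and 11.65 with TGF-b1, a change of -1.30 ± 0.11. In total RNA it gave 12.27, 12.13 and 12.23 against 10.59, 10.34 and 10.48, a change of -1.74 ± 0.11, or 3.33-fold lower. All TGF-b1 arrays lay below all control arrays in each kind of RNA. The probe set that stood for Cxcl1 in NMuMG (1457644_s_at) is of a kind that may bind several transcripts. The other Cxcl1 probe sets gave -1.61 ± 0.13 and -1.62 ± 0.12 in newly made RNA and -2.12 and -1.66 in total RNA.

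Cxcl2, a close relative of Cxcl1 and its neighbour on chromosome 5, gave 5.16, 5.26 and 4.83 against 4.62, 4.56 and 4.74 in newly made RNA (-0.44 ± 0.13) and 4.71, 4.81 and 4.62 against 4.49, 4.62 and 4.41 in total RNA (-0.21 ± 0.13). The groups did not overlap in either kind of RNA, by a narrow margin.

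Among the monocyte attractants, Ccl2 gave 11.13, 10.90 and 11.04 in newly made control RNA and 10.86, 10.58 and 10.63 with TGF-b1 (-0.33 ± 0.14). In total RNA Ccl2 gave 10.76, 10.46 and 11.02 against 10.40, 10.23 and 10.16 (-0.48 ± 0.14). Its groups did not overlap. Ccl7, its neighbour in the genome, gave 6.71 to 7.49 against 7.02 to 7.46 in newly made RNA (0.19 ± 0.24) and 6.14 to 7.08 against 6.33 to 6.89 in total RNA (-0.01 ± 0.24), and its groups overlapped.

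Cxcl10 was higher with TGF-b1. It gave 6.50, 6.10 and 6.62 in total RNA of control cells and 7.33, 7.21 and 6.95 with TGF-b1, a change of 0.76 ± 0.16. In newly made RNA it gave 6.86, 6.57 and 7.01 against 7.01, 7.38 and 7.34 (0.43 ± 0.16). Those groups met at 7.01 without overlapping.

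Cxcl16 and Cx3cl1 are the transmembrane chemokines, which can hold leukocytes at the cell surface or be shed. Cxcl16 gave 7.70, 7.48 and 7.56 in newly made control RNA and 7.96 ± 0.04 (SD, n = 3) with TGF-b1 (0.38 ± 0.11), whereas its total RNA groups overlapped (0.11 ± 0.11). Its other probe set (1449195_s_at) gave larger changes of 0.70 ± 0.12 and 0.41 ± 0.12. Cx3cl1 overlapped between control and TGF-b1 in newly made (0.18 ± 0.21) and total RNA (0.15 ± 0.21).

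Cxcl12, the CXCR4 ligand made by many stromal cells, had the same mean with and without TGF-b1 to within its error, at 10.10 ± 0.82 and 10.08 ± 0.87 (SD, n = 3) in newly made RNA and 9.15 ± 0.48 in both total RNA groups. The wide spread came from the arrays numbered 1. These gave 9.15, 9.08, 8.60 and 8.60 in the 4 groups, against 10.47 to 10.70 in the other newly made arrays and 9.37 to 9.47 in the other total arrays. The difference between the arrays numbered 1 and the rest was therefore shared by both treatments and both kinds of RNA. It was not confined to Cxcl12. Array 1 was also the lowest of every NMuMG group for Ccl7 and for Cx3cl1, for the latter narrowly in total RNA with TGF-b1.

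**Figure D1:**
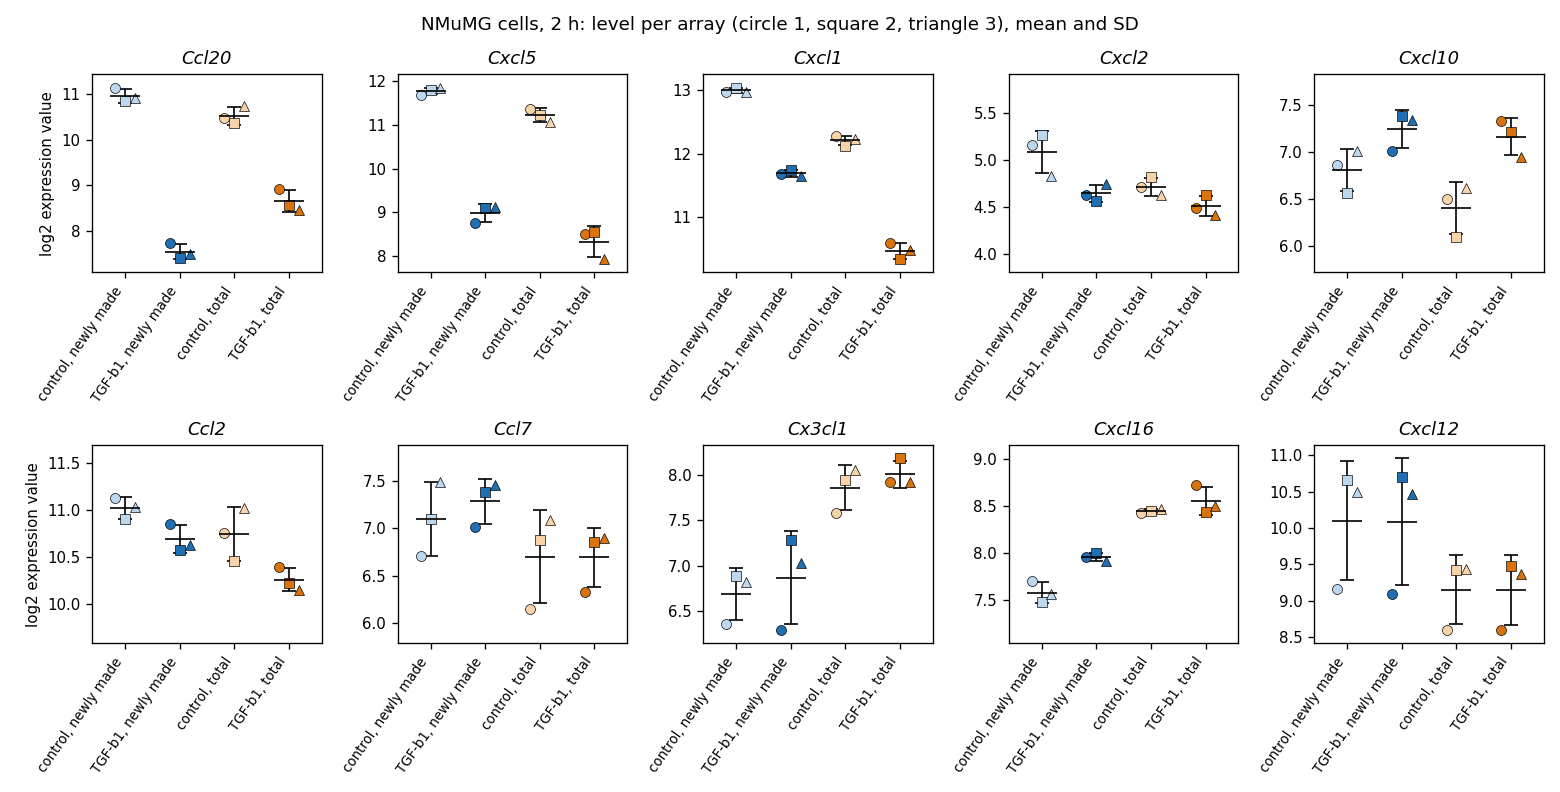
Expression value (log2) of the 10 chemokine genes in each of the 12 NMuMG arrays, by treatment and kind of RNA. Points are arrays, with the marker shape giving the replicate number, and lines show the mean and SD of 3 arrays. Ccl20, Cxcl5 and Cxcl1 separate control from TGF-b1 in both kinds of RNA, and Cxcl12 separates the arrays numbered 1.

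Counted over the list, the groups of 5 genes were lower without overlap in newly made RNA, against 9.05% of all genes, and 2 were higher (Cxcl10 and Cxcl16), against 8.45%. In total RNA 5 were lower, against 10.7% of all genes, and 1 was higher (Cxcl10), against 7.35%. Nothing is read from these counts, since the list was chosen from this comparison. The median change of the 10 genes was -0.18 in newly made and -0.11 in total RNA, and that of all genes -0.01 and -0.03. Among the cell type markers, 1 epithelial gene rose and 2 fell of 12 in newly made RNA, and 1 rose and 0 fell in total RNA. Of 10 macrophage and leukocyte markers 1 fell and 0 rose in newly made RNA and none was called in total RNA (1 had an unadjusted limma p under 0.05). Of 8 fibroblast markers 1 rose in newly made RNA (Col1a1 by 0.79 ± 0.16, adjusted p = 0.00663), and limma called 0 in total RNA (2 had an unadjusted p under 0.05). Their part in the values was not tested.

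The change in newly made RNA minus that in total RNA separated Ccl20 from Cxcl5. Ccl20 differed by -1.55 ± 0.21, so that its TGF-b1 change was larger in newly made RNA. Cxcl5 differed by 0.10 ± 0.23, and Cxcl1 by 0.43 ± 0.15, which is a smaller decrease in newly made than in total RNA. The Cxcl1 value went to 0.03 when the table was quantile normalized and to 0.33 with the mean of its probe sets, of which the others gave 0.52 ± 0.18 (1419209_at) and 0.04 ± 0.17 (1441855_x_at). Under quantile normalization that of Ccl20 went to -1.76 and that of Cxcl5 to -0.22, so the Cxcl5 sign turned. The remaining 7 genes lay between -0.32 ± 0.23 (Cxcl10) and 0.27 ± 0.16 (Cxcl16).

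The balance of newly made to total RNA, averaged over both treatments, uses arrays in a contrast that is independent of the TGF-b1 comparisons, and it was tested. The neutrophil attractants and the monocyte attractants were relatively higher in newly made RNA, and the transmembrane chemokines were relatively higher in total RNA. Of the 10 genes, 6 were higher in newly made RNA, against 20.7% of all genes, and 3 were lower, against 32.7%.

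Cxcl1 was higher by 1.00 ± 0.07 (limma adjusted p = 5.83e-09), with every newly made array above every total array of the same treatment. Cxcl5 was higher by 0.61 ± 0.11 (adjusted p = 0.000212) and Cxcl12 by 0.94 ± 0.29 (adjusted p = 0.0119). Smaller differences were found for Ccl7 (0.50 ± 0.17, adjusted p = 0.0198), Ccl2 (0.35 ± 0.10, adjusted p = 0.00667) and Cxcl2 (0.25 ± 0.09, adjusted p = 0.025). Cxcl2 levels are low, so the size of its difference is uncertain. The Cxcl10 difference of 0.24 ± 0.11 did not pass (adjusted p = 0.0877), with a 95% interval that reached 0.49. The Ccl7 call was lost without array 3 of newly made control RNA (adjusted p = 0.0557), or without array 1 of total RNA of control (0.0577) or TGF-b1 cells (0.0616). The Cxcl2 call was lost without array 2 of newly made control (0.0725), array 3 of total control (0.0528), or array 3 of newly made (0.064) or total RNA (0.0608) of TGF-b1 cells. Cxcl10 passed without the first of these 4 arrays (0.0416), without array 3 of total control RNA (0.0482) or without array 1 of newly made TGF-b1 RNA (0.0371).

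Cx3cl1 was lower in newly made RNA by 1.16 ± 0.15 (adjusted p = 4.83e-06). Its arrays gave 6.36, 6.88 and 6.82 in newly made control RNA against 7.58, 7.95 and 8.06 in total control RNA, and 6.29, 7.28 and 7.03 against 7.92, 8.19 and 7.93 with TGF-b1. Cxcl16 was lower by 0.73 ± 0.08 (adjusted p = 4.63e-07), going from 8.42, 8.45 and 8.46 in total to 7.70, 7.48 and 7.56 in newly made control RNA. Neither gene's newly made arrays overlapped its total arrays.

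In the values as deposited, Ccl20 was the gene whose balance turned with treatment. Its mean over both treatments was lower in newly made RNA by 0.34 ± 0.10 (adjusted p = 0.0114), but it was 0.44 ± 0.15 higher there in control cells and 1.11 ± 0.15 lower there with TGF-b1, so the mean describes neither state. For Cxcl1 the same values were 0.79 ± 0.11 in control and 1.22 ± 0.11 in TGF-b1 cells, for Cxcl5 0.56 ± 0.16 and 0.66 ± 0.16, and for Cx3cl1 -1.17 ± 0.21 and -1.15 ± 0.21. Values by treatment are a description, since they hold the 2 h comparison from which the list was chosen. They were not recomputed after centring of the arrays. In control cells the array median was itself higher in newly made (5.96) than in total RNA (5.71), so the Ccl20 value there depends on scaling.

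These differences are relative to the rest of the RNA on each array. Medians over all probe sets, as means of 3 arrays, were 5.96 and 5.94 in newly made and 5.71 and 5.72 in total RNA of control and TGF-b1 cells, and the median gene changed by -0.08. Centring each array on its median moved the median gene by -0.24, to -0.32, and left 3 members higher and 3 lower, with 2807 genes higher and 11437 lower in place of 3768 and 5946. Cxcl2 (0.02), Ccl2 (0.12) and Ccl7 (0.26) then no longer passed, whereas Cxcl1, Cxcl5, Cxcl12, Ccl20, Cx3cl1 and Cxcl16 did. Quantile normalization left 4 members higher and 3 lower, with 3567 genes higher and 8412 lower. The mean level of the 12 epithelial markers was 8.87 to 9.22 in newly made RNA and at least 9.78 in total RNA, with 7 of 12 lower and 0 higher in newly made RNA. Of 8 fibroblast markers 3 were higher, among them Pdgfrb by 1.29 ± 0.39 and Col1a1 by 0.48 ± 0.12, and 2 lower, and of 10 macrophage and leukocyte markers 2 were lower and 0 higher. The part of these markers in the values was not tested.

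In newly made against total RNA 4 of these genes have other probe sets. For Cxcl1 they gave 0.84 ± 0.09 (1419209_at) and 0.94 ± 0.09 (1441855_x_at), and for Cxcl16 -0.87 ± 0.09 (1449195_s_at). For Cxcl12 they gave 1.93 ± 0.30 (1417574_at) and -0.13 ± 0.09 (1439084_at). The latter had a mean of 5.18 over the arrays, against 9.57 and 9.62 for the other Cxcl12 probe sets, so at that low level it is a weak check. For Cx3cl1 they gave -0.76 ± 0.09 (1415804_at), -0.30 ± 0.09 (1441884_x_at) and -0.06 ± 0.09 (1421610_at, adjusted p = 0.601), and as the mean of its probe sets Cx3cl1 differed by -0.57 in place of -1.16. Here 1441884_x_at and 1421610_at had low means over the arrays (4.34 and 4.39), against 6.23 for 1415804_at and 7.36 for 1415803_at, so they are weak checks. Ccl20, Cxcl5, Cxcl2, Cxcl10, Ccl2 and Ccl7 each have 1 probe set in both tables, so no second probe set checks them.

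**Figure D2:**
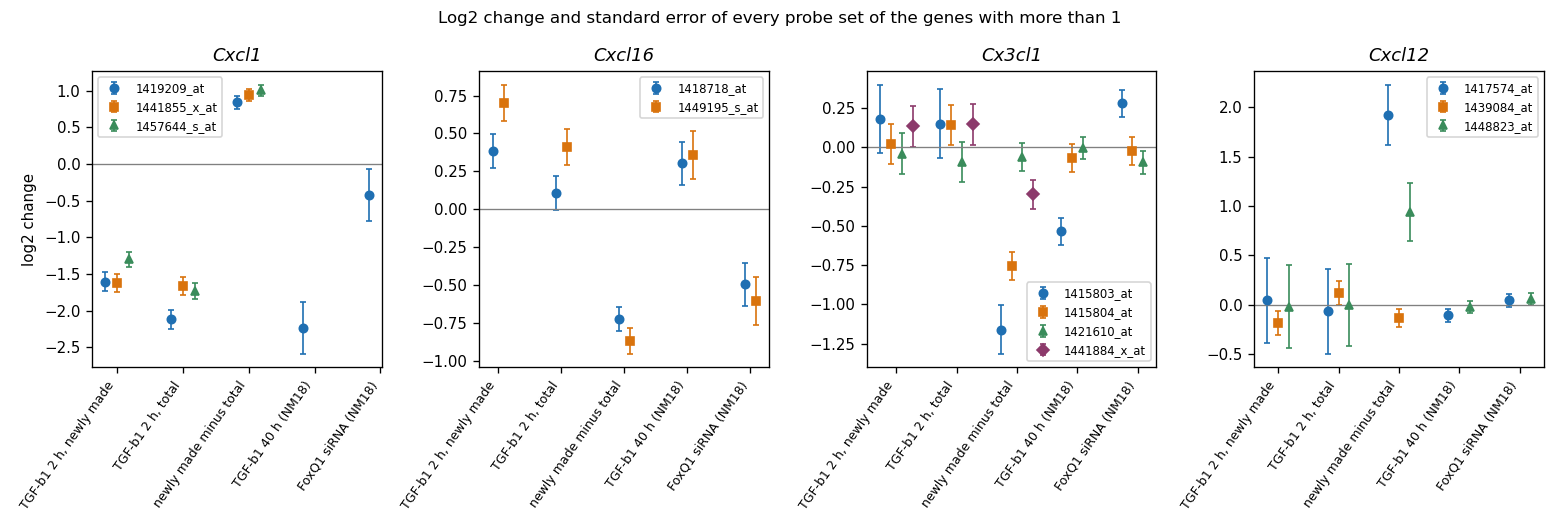
Log2 change with its standard error for every probe set of the 4 genes that have more than 1, in each comparison. The Cxcl1 probe sets are all below 0 at 2 h, from -2.12 to -1.66 in total RNA, and the Cx3cl1 probe sets 1415803_at and 1415804_at are at -0.54 and -0.07 after 40 h of TGF-b1.

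After 40 h of TGF-b1 in NM18 cells under control siRNA, Cxcl5, Ccl20 and Cxcl1 fell 17.9-fold, 12.2-fold and 4.71-fold, Ccl7 rose 4.75-fold, Cxcl10 rose 1.91-fold, and Ccl2 did not pass at a log2 change of 0.03. Of the 10 genes 5 fell, against 17.5% of all 12393 genes, and 2 rose, against 13.2%. Their median change was -0.32 and that of all genes 0.00. These arrays differ from the NMuMG set in cell line, time, siRNA and RNA preparation, and the tables share no arrays.

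Among the neutrophil attractants, Cxcl5 gave 12.43, 12.06 and 12.40 with control siRNA alone (12.29 ± 0.21, SD, n = 3) and 8.47, 8.26 and 7.66 with TGF-b1 (8.13 ± 0.42). It fell by 4.17 ± 0.28 (17.9-fold lower, limma adjusted p = 3.4e-06), the 2nd largest fall of all genes. Cxcl1 gave 12.06, 10.79 and 11.39 against 9.96, 8.61 and 8.97 and fell by 2.24 ± 0.35 (4.71-fold lower, adjusted p = 0.000563). All 3 TGF-b1 arrays lay below all 3 control arrays for both genes. Cxcl2, at 6.13, 5.86 and 5.76 against 5.28, 5.27 and 5.30, fell by 0.63 ± 0.09 (adjusted p = 0.000249). These levels are low, with the median gene at 7.79 and the lowest value of the table at 4.57, so the size of the fall is uncertain.

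Ccl20 gave 12.66, 11.94 and 12.89 with control siRNA alone and 9.24, 8.30 and 9.13 with TGF-b1. It fell by 3.61 ± 0.27 (12.2-fold lower, adjusted p = 5.45e-06), the 4th largest fall of all genes. In both groups array 2 was the lowest, and within each replicate number the fall was of similar size.

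Of the monocyte attractants, Ccl7 gave 7.07, 7.48 and 6.51 against 9.73, 8.62 and 9.46 and rose by 2.25 ± 0.28 (4.75-fold higher, adjusted p = 0.000116), the 21st largest rise of all genes. Ccl2, already at 13.58, 13.60 and 13.28, gave 13.79, 13.33 and 13.43 with TGF-b1. Its change of 0.03 ± 0.17 (adjusted p = 0.932) has a 95% interval of -0.35 to 0.40, and its sign turned when single arrays were left out. The 95% interval of Ccl7, its neighbour and a ligand of the same receptor, was 1.63 to 2.86, and the difference between these genes was not tested.

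Cxcl10 gave 8.38, 7.67 and 7.39 against 9.25, 8.71 and 8.28. The groups overlapped, by array 1 of control siRNA alone, and the rise of 0.93 ± 0.27 passed (adjusted p = 0.0208). It no longer passed without array 2 (adjusted p = 0.0578) or array 3 (0.0915) of control siRNA alone, or without array 1 of control siRNA with TGF-b1 (0.0917). Within each replicate number Cxcl10 was higher with TGF-b1, and with the replicate number as a block the adjusted p was 3.17e-05.

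Of the transmembrane chemokines, Cx3cl1 gave 7.48, 7.38 and 7.61 against 6.89, 6.95 and 7.03 and fell by 0.54 ± 0.08 (adjusted p = 0.000575). Its other probe sets, 1415804_at and 1421610_at, gave -0.07 ± 0.09 and -0.01 ± 0.07, so the fall was seen with 1 of 3 probe sets. Their means over the arrays were 6.84 and 5.88, against 7.23 for the first, and at its low level 1421610_at could show little fall. Cxcl16 gave 8.20, 8.30 and 8.47 against 8.54, 8.47 and 8.87, a change of 0.30 ± 0.14 that did not pass (adjusted p = 0.14) and passed with the replicate number as a block (adjusted p = 0.0219). Cxcl12 gave 5.72 to 5.94 over both groups and changed by -0.11 ± 0.06 (adjusted p = 0.236). The median gene lay at 7.79 and the lowest value of the table at 4.57, so at this low level Cxcl12 could show little fall.

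**Figure D3:**
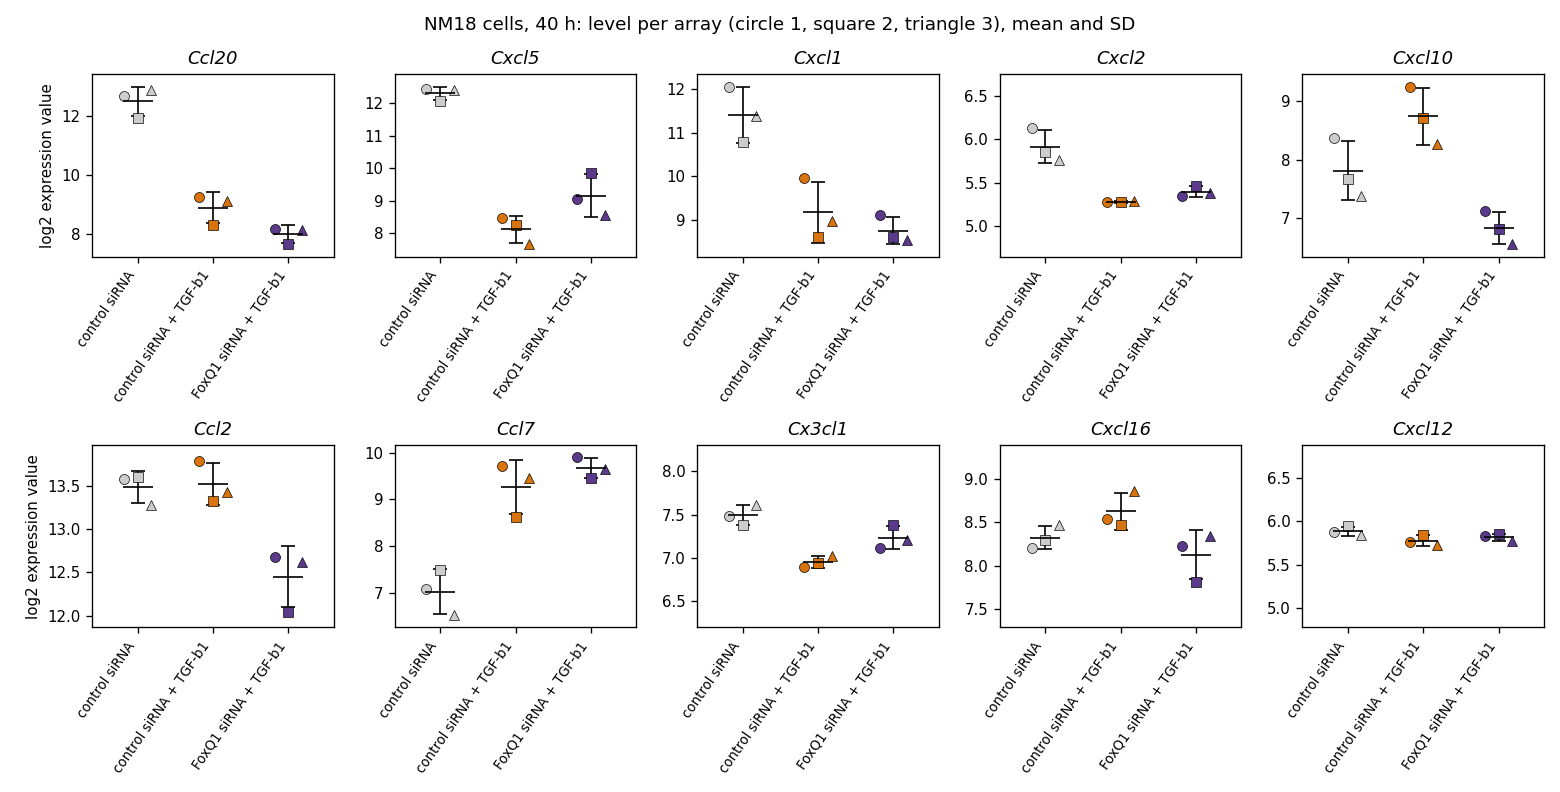
Expression value (log2) of the 10 chemokine genes in each of the 9 NM18 arrays, by siRNA and TGF-b1. Points are arrays, with the marker shape giving the replicate number, and lines show the mean and SD of 3 arrays. Cxcl5 lies at 12.06 to 12.43 with control siRNA alone, at 7.66 to 8.47 with TGF-b1 and at 8.58 to 9.86 with FoxQ1 siRNA and TGF-b1.

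Other values moved with TGF-b1 on these arrays. The mean level of the 12 epithelial markers was 10.20 to 10.22 with control siRNA alone and 9.98 to 10.06 with TGF-b1, with 4 markers lower and 2 higher. Of all genes 17.5% were lower and 13.2% higher. The mean of the 8 fibroblast markers was 5.84 to 5.92 with control siRNA alone and 6.03 to 6.07 with TGF-b1, with 1 of 8 higher. The mean of the 10 macrophage and leukocyte markers was 6.72 to 6.79 and 6.69 to 6.74, with 2 higher and 1 lower. Their part in the chemokine values was not tested.

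With FoxQ1 siRNA in place of control siRNA, both with TGF-b1, Cxcl10 and Ccl2 fell 3.76-fold and 2.09-fold, Ccl20 and Cxcl16 fell less, and Cxcl5 rose about as much as Ccl2 fell. Of the 10 genes 4 fell, against 8.28% of all genes, and 2 rose, against 11.3%. The median change of the 10 was -0.19 and that of all genes 0.00. This comparison uses the same control siRNA with TGF-b1 arrays as the one above, so the values of both comparisons for a gene are not independent.

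Cxcl10 gave 9.25, 8.71 and 8.28 with control siRNA and 7.12, 6.81 and 6.56 with FoxQ1 siRNA (8.74 ± 0.49 and 6.83 ± 0.28, SD, n = 3). It fell by 1.91 ± 0.27 (limma adjusted p = 0.000526), to a level below each array of control siRNA alone. Ccl2 gave 13.79, 13.33 and 13.43 against 12.68, 12.04 and 12.62 and fell by 1.07 ± 0.17 (adjusted p = 0.00123), also to below each array of control siRNA alone. Both calls were made under every one of the 16 alternatives run.

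Ccl20 gave 9.24, 8.30 and 9.13 against 8.18, 7.64 and 8.14, which do not overlap. The fall of 0.90 ± 0.27 was in the same direction as the TGF-b1 effect and passed narrowly in the main fit, which does not pair the arrays (adjusted p = 0.0398). It did not pass without array 1 (adjusted p = 0.164) or 3 (0.132) of control siRNA with TGF-b1, array 1 (0.0643), 2 (0.125) or 3 (0.0643) of FoxQ1 siRNA, or array 1 of control siRNA alone (0.0503). With the replicate number as a block its adjusted p was 8.91e-05.

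Cxcl5 moved the other way, from 8.47, 8.26 and 7.66 to 9.06, 9.86 and 8.58, a rise by 1.03 ± 0.28 (adjusted p = 0.024). It did not reach the level of control siRNA alone, whose lowest array was at 12.06. The call was lost without array 1 (adjusted p = 0.0547) or 2 (0.0542) of FoxQ1 siRNA, where without array 2 the rise was 0.69, and without array 3 of control siRNA with TGF-b1 (0.0949). Ppbp, its neighbour and a ligand of the same receptor, rose by 1.80 ± 0.21 (adjusted p = 0.000166) in the same comparison.

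Cxcl1 gave 9.96, 8.61 and 8.97 against 9.11, 8.61 and 8.53, a change of -0.43 ± 0.35 (adjusted p = 0.485, 95% interval -1.20 to 0.34) between overlapping groups. With the replicate number as a block in limma the Cxcl1 adjusted p was 0.0527, close to the threshold without passing. Cxcl2 changed by 0.11 ± 0.09 (adjusted p = 0.453). The neutrophil attractants Cxcl5, Cxcl1 and Cxcl2 had lower means after TGF-b1 in each comparison, for Cxcl2 at low levels. Under FoxQ1 siRNA the 95% intervals of Cxcl1 and Cxcl2 in the main fit held values of both signs, so their direction is uncertain. The call was made for Cxcl5 alone among these 3.

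Ccl7 gave 9.73, 8.62 and 9.46 against 9.90, 9.46 and 9.65, a change of 0.40 ± 0.28 (adjusted p = 0.391) between overlapping groups. Cxcl16 fell by 0.50 ± 0.14 (adjusted p = 0.0284), from 8.54, 8.47 and 8.87 to 8.23, 7.81 and 8.34. Its other probe set gave -0.61 ± 0.16 (adjusted p = 0.023). Without array 1 or 3 of control siRNA with TGF-b1, or array 2 of FoxQ1 siRNA, the adjusted p of Cxcl16 was 0.0577, 0.11 and 0.0803.

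Cx3cl1 went from 6.89, 6.95 and 7.03 to 7.12, 7.38 and 7.21, a rise by 0.28 ± 0.08 (adjusted p = 0.0385) that its other probe sets did not show (-0.02 ± 0.09 and -0.10 ± 0.07). Those lie at the lower levels given above. As the mean of its probe sets the change was 0.05 (adjusted p = 0.636), and leaving out any of 6 single arrays gave adjusted p-values of 0.051 to 0.142. Cxcl12, again at low levels, changed by 0.04 ± 0.06 (adjusted p = 0.732).

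The number of members called was 6. It went to 3 without array 1 of control siRNA with TGF-b1, to 2 without array 3 of that group and to 2 without array 2 of FoxQ1 siRNA.

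Ordered by level, Ccl20 was highest with control siRNA alone, then with TGF-b1, then with FoxQ1 siRNA and TGF-b1, and no neighbouring groups overlapped. Cxcl5, Cxcl2 and Cx3cl1 had control siRNA alone highest, FoxQ1 siRNA with TGF-b1 next and control siRNA with TGF-b1 lowest, again without overlap between neighbours. For Cx3cl1 the lowest array of control siRNA alone (7.3784) barely cleared the highest of FoxQ1 siRNA with TGF-b1 (7.3779). Its other probe sets were not called in either comparison. Cxcl2 lay at low levels, and its FoxQ1 siRNA change was not called. For Cxcl1 control siRNA alone was highest and the TGF-b1 groups overlapped. For Ccl7 control siRNA alone was lowest and the TGF-b1 groups overlapped. Ccl2 and Cxcl10 had FoxQ1 siRNA lowest, with the other groups overlapping. Cxcl16 had control siRNA with TGF-b1 highest, with the others overlapping, and Cxcl12 overlapped throughout. The Cxcl16 margin was narrow, at 8.4706 for the lowest array of that group against 8.4669 for the highest of control siRNA alone. That change was not called in the main fit.

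The epithelial marker mean was 10.30 to 10.37 on the FoxQ1 siRNA arrays against 9.98 to 10.06 on control siRNA with TGF-b1, with 4 of 12 markers higher and 0 lower. Of all genes 11.3% were higher and 8.28% lower. The macrophage and leukocyte mean was 6.77 to 6.83 against 6.69 to 6.74, with 3 of 10 higher and 0 lower. These moved in the same comparison as the chemokines, and their part in the values was not tested.

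**Figure D4:**
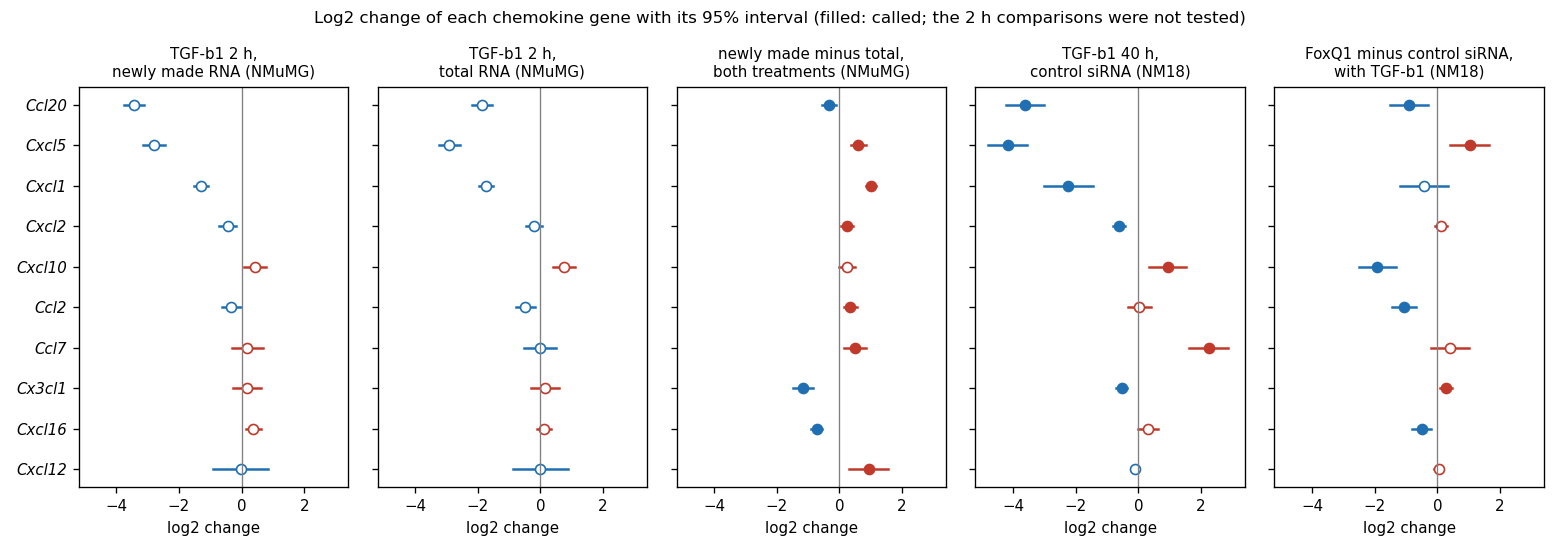
Log2 change of each of the 10 genes with its 95% interval in the 5 comparisons, with filled points for calls at an adjusted p under 0.05 and open points for values that were not called or, at 2 h, not tested. Ccl20, Cxcl5 and Cxcl1 lie left of 0 in each TGF-b1 comparison, whereas under FoxQ1 siRNA the lowest value is that of Cxcl10 at -1.91.

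The wider pathway was read through lists of genes that are no members. These lists, too, were chosen with earlier results of these data known, so their p-values, above all at 2 h, are not independent tests. Of all NM18 genes 13.2% rose and 17.5% fell with TGF-b1 at 40 h, and 11.3% rose and 8.28% fell with FoxQ1 siRNA. These shares stand beside each NM18 list count below. Of 24 other chemokine genes measured in NM18, 2 rose and 3 fell with TGF-b1 at 40 h (Ccl17 by 0.48 and Ccl8 by 0.32 upwards, while Cxcl17 fell by 0.71), and 2 rose and 1 fell with FoxQ1 siRNA. Of 25 measured in NMuMG, 1 fell with TGF-b1 in newly made RNA (Ppbp by 0.78, adjusted p = 0.0452), where 3.35% of all genes rose and 2.79% fell. In total RNA, where 1.46% rose and 1.02% fell, limma called 0 of the 25, and 1 had an unadjusted p under 0.05. The shares for each kind of RNA at 2 h stand beside each list count at 2 h below. In newly made against total RNA 8 of the 25 were lower and 0 higher, where 32.7% of all genes were lower and 20.7% higher. In that comparison 4 of 21 receptors were higher and 2 lower, 6 of 14 NF-kB subunits and regulators were higher and 7 lower, 8 of 18 other NF-kB targets were higher and 3 lower, and 3 of 9 AU-rich binding factors were higher and 2 lower.

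Of 21 chemokine receptor genes measured, the scavenging receptor Ackr3, which binds Cxcl12, rose after 2 h in newly made (1.22 ± 0.15, limma adjusted p = 9.22e-05) and total RNA (1.43 ± 0.15, adjusted p = 3.38e-05), and it was the only one called there. Both p-values are a description, since the list was chosen with earlier results known. At 40 h in NM18 Ackr3 fell by 0.55 ± 0.14 (adjusted p = 0.013), the only receptor called, and with FoxQ1 siRNA it rose by 0.70 ± 0.14 (adjusted p = 0.00576) while Cxcr3 fell by 0.20.

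Among NF-kB subunits and regulators, 2 of 13 rose and 2 fell with TGF-b1 at 40 h, among them Rela, the p65 subunit, which rose by 0.42 ± 0.07 (adjusted p = 0.000812). With FoxQ1 siRNA Rela fell by 0.67 ± 0.07 (adjusted p = 6.15e-05) and the inhibitor gene Nfkbia, itself an NF-kB target, fell by 0.90 ± 0.21 (adjusted p = 0.0107), and none of the 13 rose. At 2 h 1 of 14 rose in newly made RNA (Rel by 0.62) and 1 fell in total RNA (Nfkbiz by 0.64).

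Other inflammatory genes that NF-kB is known to drive did not all share the direction of Ccl20 and Cxcl5. Of 18 measured, 3 rose and 6 fell at 40 h: Ptgs2, the inducible cyclooxygenase, rose by 2.93 ± 0.18 (adjusted p = 2.49e-06), while Vcam1, an adhesion molecule, fell by 2.25 ± 0.30 (adjusted p = 0.000203) and Saa3, an acute-phase protein, by 1.65 ± 0.12. At 2 h 4 rose and 2 fell in newly made RNA, with Il6 higher by 1.85 ± 0.26 and Cd40 by 1.04 ± 0.11 and Tnfaip2 lower, and 2 rose and 1 fell in total RNA. With FoxQ1 siRNA 2 fell, Csf1 by 1.40 ± 0.16 and Birc3 by 0.45, and 0 rose, where 8.28% of all genes fell and 11.3% rose.

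Factors that bind AU-rich elements shorten or lengthen the life of many chemokine mRNAs. Of 9 measured, 1 rose and 1 fell at 2 h in each kind of RNA and the others did not pass. Zfp36, which promotes decay, fell by 0.92 ± 0.12 in newly made (adjusted p = 0.000124) and by 1.16 ± 0.12 in total RNA (adjusted p = 2.36e-05), and its relative Zfp36l2 rose by 1.03 ± 0.19 and 0.96 ± 0.19. At 40 h 2 of 8 rose, with Zfp36l2 higher by 0.56, and 2 fell. With FoxQ1 siRNA 1 of 8 fell, Zfp36l2 by 0.41.

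The genes whose array values were most like those of Ccl20 and Cxcl5, the members with the widest range in both tables, were found by the root mean square difference over all arrays after each gene was centred on its mean. Over the 12 NMuMG arrays Cxcl5, which ranged over 3.92, was most like Irs1 (0.526), Chka (0.605) and Exph5 (0.640). Ccl20, which ranged over 3.74, was most like 3110009F21Rik (0.526), C730027H18Rik (0.594) and Cyp3a13 (0.621). Over the 9 NM18 arrays Cxcl5, with a range of 4.77, was most like Lgals4 (0.496), Tspan8 (0.527) and Krt19 (0.528), and Ccl20, with a range of 5.25, most like Ermp1 (0.544), D17H6S56E-5 (0.664) and Il33 (0.669). For neither member was any gene among the nearest 3 in both tables.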

How the data were processed

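The members and gene lists were chosen with earlier results of these data known. RNA of 12 NMuMG and 9 NM18 samples was hybridised to Affymetrix mouse arrays. The deposited values are log2 expression values per probe set, summarised by the authors. The log2 scale was read from their range, 2.34 to 14.8 in NMuMG and 4.57 to 14.6 in NM18. The submitters' processing notes name affy 1.18.2 without its role, and for how arrays were normalized the sources used here give nothing. RNA was amplified over a pair of rounds for the NMuMG arrays and with a 3' in vitro transcription kit for NM18, per the labels' protocols.

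Probe sets with 1 gene symbol in the platform annotation were kept, and the one with the highest mean over a table stood for its gene. Probe sets ending in _s_at or _x_at may bind several transcripts. Each table was fitted in 1 limma model over all its groups (version 3.58.1, lmFit then eBayes, under R 4.3.3), two-sided, with Benjamini-Hochberg adjustment over all its genes and a threshold of 0.05, and the steps were tested on simulated data. The number of arrays limits the precision. Present calls and scanner files were not used here.

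Same-numbered NM18 arrays had a correlation of their deviations from the group means above 0.1 in 9 of 9 pairs (r = 0.16 to 0.608), a hint from the data that the numbers pair them. The main fits and those leaving out an array compared group means and did not use this pairing. In NMuMG r was above 0.1 in 14 of 18 pairs (r = -0.18 to 0.73). The replicate number as a block was an alternative, beside median centring, quantile normalization, the mean of a gene's probe sets, genes above the table median, the compared groups alone, limma-trend and leaving out each array.

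All 10 members are named. From the other lists the check genes and, per list and comparison, up to 3 called genes with the smallest p were named. Motifs were searched on both strands of RefSeq windows of 250 bases.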

Additional observations from a re-analysis of the deposited data

How the results depend on the processing

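With 3 arrays a group and no pairing in the fit, the calls under FoxQ1 siRNA were the least firm: leaving out each array gave 2 to 6 called members in place of 6, and the other alternatives 5 to 6. TGF-b1 at 40 h gave 5 to 8 called members in place of 7, and newly made against total RNA 6 to 10 in place of 9. For Ccl2 at 40 h, which was not called, leaving out single arrays gave -0.11 to 0.12, with array 3 of control siRNA alone left out giving -0.08 and array 1 of control siRNA with TGF-b1 left out giving -0.11. Cxcl10 in newly made against total RNA, not called either, went to -0.034 under quantile normalization and passed when any 1 of 3 arrays was left out. The cause was not tested. Of the members' values, 151 of 157 at 40 h, 138 of 157 under FoxQ1 siRNA and 171 of 189 in newly made against total RNA kept their direction and side of the threshold.

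With the replicate number as a block, 8 members were called at 40 h (Cxcl16 added, adjusted p = 0.0219), 6 under FoxQ1 siRNA and 9 in newly made against total RNA, and the block changed no other call. In NM18 the same-numbered arrays correlated above 0.1 in 9 of 9 pairs, which is only a hint that the numbers pair them. A block within each kind of RNA could not be fitted for newly made against total RNA. Restricting the fit to genes above the table median gives no value for Cxcl2 in either table or for Cx3cl1 and Cxcl12 in NM18. Leaving out the arrays numbered 1 from every NMuMG group was chosen after the Cxcl12 levels were seen; without them Cxcl2 no longer passed in newly made against total RNA (adjusted p = 0.121) and Cxcl10 did (adjusted p = 0.0286).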
